A study of Mus musculus with 15 samples.

Results

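The transcripts described here encode the proteasome and its regulators, chosen as every transcript whose GENCODE M21 symbol starts with *Psma*, *Psmb*, *Psmc*, *Psmd*, *Psme*, *Psmf* or *Psmg*. The rule found 50 of the 21727 transcripts in the count table. Of these, 46 were among the 10085 transcripts with a CPM (counts scaled by library size) over 2 in at least 14 of the 15 libraries and were tested. All samples were E14Tg2a.4 mouse embryonic stem cells (mESCs), cultured on gelatin without feeders and with LIF and treated with cycloheximide before lysis. The WT line was compared with a line in which a 3xFLAG tag had been placed by CRISPR editing at the C-terminal end of endogenous *Rps27* (Rps27-FLAG, labelled eS27-FLAG) and a line with the same tag on its paralog *Rps27l* (Rps27l-FLAG, labelled eS27L-FLAG), both homozygous. Each line had 3 clones, 1 per replicate, and each replicate was pooled for library preparation. In all 9 clones the ribosome-protected fragments (RPFs) of the whole ribosome pool were counted (total RPFs), and in the 6 tagged clones also those of ribosomes held on anti-FLAG beads (IP RPFs), which gave 5 conditions of 3 libraries. An IP from the untagged line was not analysed here. The comparisons ask whether tagging altered RPFs on these transcripts and whether ribosomes holding *Rps27* or *Rps27l* differed from all ribosomes of the same clones in the transcripts they occupied.

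The proteasome degrades proteins that carry ubiquitin chains. Its 20S core is a barrel of stacked rings, in which the alpha subunits (*Psma* genes) form the outer rings and the gate, and the beta subunits (*Psmb* genes) form the inner rings that hold the proteolytic sites of *Psmb5*, *Psmb6* and *Psmb7*. The 19S regulatory particle unfolds substrates with a ring of ATPases (*Psmc* genes) and binds and removes ubiquitin with non-ATPase subunits (*Psmd* genes). Dedicated chaperones build both parts, and alternative activators of the 11S and PA200 families (*Psme* genes) can cap the core in place of the 19S particle. Cells that respond to interferon, and immune cells, replace the catalytic subunits by inducible counterparts. In embryonic stem cells the proteasome is known for high activity and for a role in protein quality control.

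The members were sorted by role into 7 alpha subunits, 7 constitutive beta subunits, 5 inducible or tissue-specific 20S subunits (*Psmb8*, *Psmb9*, *Psmb10*, *Psmb11* and *Psma8*), 6 ATPases, 11 non-ATPase subunits, 3 chaperones of 19S assembly (*Psmd5*, *Psmd9* and *Psmd10*), 5 activators, the regulator *Psmf1* (PI31), 4 chaperones of 20S assembly (*Psmg1* to *Psmg4*), and *Psmc3ip*, which encodes a factor of meiotic recombination and shares only the prefix. The 4 members that failed the filter were *Psmb8* with 99 counts over the 15 libraries, *Psme2* with 76, *Psmb11* with 2 and *Psme2b* with 0.

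Because the counts hold only uniquely aligned fragments, copies of a coding sequence elsewhere bear on the level that can be counted. Of the 50 members, 44 had no window of 28 nt in the counted part of the CDS with an exact copy in another transcript of the table, and 33 had no copy within 2 mismatches. The strongest case was the pair *Psme2* (chromosome 14, 11 exons) and *Psme2b* (chromosome 11, 1 exon), whose CDS of 717 nt differed at 5 positions, an identity of 99.3%. *Psme2* encodes a subunit of the 11S activator, and of its 657 counted windows 521 had an exact copy in *Psme2b* and 657 a copy within 2 mismatches. The 80 nt with the most differences (positions 464 to 543 of both CDS) are shown in GRCm38, minus strand, at chr14:55588049-55588266 for *Psme2*, where an intron lies between exons 8 and 9 of the stretch, and at chr11:48945576-48945655 for *Psme2b*. Bases that differ are in capitals.

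*Psme2*: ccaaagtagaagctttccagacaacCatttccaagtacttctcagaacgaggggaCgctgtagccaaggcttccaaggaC

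*Psme2b*: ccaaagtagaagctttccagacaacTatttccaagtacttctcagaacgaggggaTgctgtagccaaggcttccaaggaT

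Counted from the first base of the CDS, the 5 substitutions from *Psme2* to *Psme2b* were C312T, A369G, C489T, C519T and C543T. The level of *Psme2* was therefore not interpreted, and its low count is reported as a count of uniquely placed fragments only.

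The second case was *Psmb3*, a beta subunit of the core. Its CDS of 615 nt was 97.1% identical to the processed pseudogene *Gm4950*, with 18 differing positions, and of its 555 counted windows 281 had an exact copy and 499 a copy within 2 mismatches in other transcripts. The 50 nt with the most differences lay in exon 3 of 6 at chr11:97706814-97706863 (GRCm38, plus strand, positions 205 to 254 of the CDS), with the 6 bases that differ from the pseudogene in capitals.

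*Psmb3*: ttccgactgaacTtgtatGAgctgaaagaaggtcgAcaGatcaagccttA

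*Gm4950* itself held 3 counts over the 15 libraries. Smaller stretches of *Psmg3* (159 of 306 windows with an exact copy), *Psmb7* (64 of 771) and *Psmd1* (263 of 2799) were shared in the same way, and the transcripts that shared most of them (*Gm26938*, *Gm6787* and *Gm21972*) held 1, 0 and 0 counts.

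Levels were compared between transcripts as RPF density, the normalized CPM per kb of counted CDS, as the mean ± SD of the 3 WT clones in total RPFs. RPF density combines mRNA abundance with ribosomes per mRNA, and in bulk samples fewer cells of a type and less RNA per cell cannot be told apart. The median of all 10082 tested transcripts with a CDS length was 25.5, and the 95th percentile was 335. The constitutive subunits of the 20S core lay above that percentile, with the exception of *Psmb3*.

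In the alpha ring the density ranged from 381 ± 11.3 for *Psma1* to 628 ± 5.22 for *Psma6*, a factor of 1.65, with a coefficient of variation of 15.6% over the 7 subunits. The constitutive beta ring ranged from 386 ± 13.8 for *Psmb7* to 582 ± 6.65 for *Psmb1* without *Psmb3*, and *Psmb3* stood at 109 ± 5.91. With windows that have no exact copy in place of the whole counted length, *Psmb3* came to 221, and with windows that have no copy within 2 mismatches, of which 56 remained, to 1081, so its place in the order was not settled. *Psmb5*, the chymotrypsin-like subunit, had a density of 411 ± 9.11, *Psmb6*, the caspase-like subunit, 452 ± 11.5, and *Psmb7*, the trypsin-like subunit, 386 ± 13.8. In the 3 WT clones *Psmb5* measured 403, 409 and 421, *Psmb6* measured 440.4, 453 and 463, and *Psmb7* measured 385, 373 and 400.3. *Psmb6* was above the other two in each clone, and *Psmb5* above *Psmb7*. With the same counts divided only by windows with no exact copy, *Psmb7* came to 421, above *Psmb5*. Divided by windows with no copy within 2 mismatches it came to 586, above *Psmb1*. Fragments from windows with near copies can still align uniquely, so such values can be too high, also for *Psmb3*. The place of *Psmb7* in the beta ring was thus not settled either.

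The 19S subunits formed a narrow band below the core. The 6 ATPases ranged from 251 ± 7.87 for *Psmc2* to 351 ± 13.0 for *Psmc6*, a factor of 1.40. The 11 non-ATPase subunits ranged from 222 ± 12.8 for *Psmd3* to 316 ± 20.4 for *Psmd7*, a factor of 1.42, with a coefficient of variation of 11.7%. *Psmd14*, the deubiquitinase of the lid, had 273 ± 24.7, and the ubiquitin receptor *Psmd4* had 286 ± 3.71. Without *Psmb3*, the median of the 13 core subunits was 465 and that of the 17 subunits of the 19S particle 269.8, and the ratio of these medians was 1.78 ± 0.0664 over the WT clones. In all 9 total RPF libraries the lowest of the 13 core subunits was above the highest of the 17, which was *Psmc6* each time. In 5 of the 6 IP RPF libraries *Psmc6* was above the lowest core subunit. The ratio of the medians lay between 1.51 and 1.85 over the 15 libraries. The CDS of the 13 core subunits ranged from 603 nt (*Psmb2*) to 831 nt (*Psmb7*). That of the 17 ranged from 930 nt (*Psmd14*) to 2859 nt (*Psmd1*). Core or 19S membership and CDS length thus cannot be told apart in this order, and a role of length was not tested.

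Assembly factors and activators were lower and more spread. Among the chaperones of the 20S core, which pair up to guide the alpha ring, *Psmg1* had 152 ± 6.21 and *Psmg2* had 151 ± 18.7, which could not be separated by their spread. *Psmg4* had 77.6 ± 18.0, and *Psmg3* had 29.6 ± 3.07, or 61.6 with the same counts divided by windows with no exact copy. The 19S chaperones ranged from 37.6 ± 2.68 for *Psmd9* to 87.4 ± 2.07 for *Psmd5*. Of the activators, *Psme3*, the nuclear PA28γ, had 242 ± 6.26, *Psme1*, its interferon-inducible relative, had 127 ± 13.1, and *Psme4*, the single-chain activator PA200, had 70.1 ± 1.90. *Psmf1*, which binds the core, had 75.9 ± 7.73, and *Psmc3ip* had 33.8 ± 5.67.

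The interferon-inducible subunits lay below the median of all transcripts. *Psmb10*, the counterpart of *Psmb7*, had a density of 22.0 ± 2.31, *Psmb9*, the counterpart of *Psmb6*, had 9.61 ± 3.00, and *Psmb8*, the counterpart of *Psmb5*, had 1.38 ± 0.690 and failed the filter. As a percentage of the constitutive partner in the same WT library, *Psmb10* reached 5.70% ± 0.731, *Psmb9* 2.13% ± 0.691 and *Psmb8* 0.338% ± 0.173. *Psma8*, a testis-specific relative of *Psma7*, had 40.9 ± 7.10, which was 8.57% ± 1.20 of *Psma7*. *Psmb11*, the thymus-specific subunit, had no count in the WT libraries. Of 7 genes of the interferon response listed beside these, 3 were tested (*Irf1*, *Tap1* and *B2m*), and the summed level of the list lay between 50.9 and 69.2 normalized CPM in the WT libraries.

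**Figure D1:**
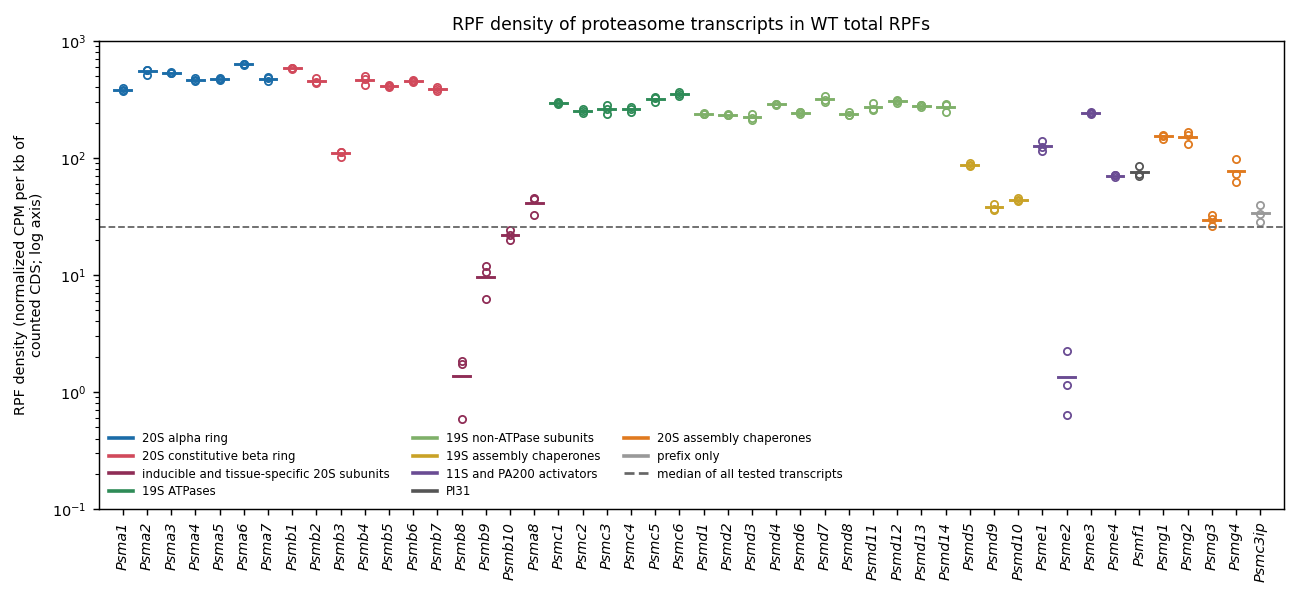
RPF density (normalized CPM per kb of counted CDS, log axis) of 48 members in the 3 WT total RPF libraries, with circles for clones, bars for their means and colours for roles. *Psmb11* and *Psme2b* are left out because they had no count in WT. The core subunits lie above the 19S subunits except for *Psmb3* at 109, and *Psmb8*, *Psmb9* and *Psmb10* lie below the dashed line, the median of all tested transcripts at 25.5.

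Library totals ranged from 3972152 to 8064166 counts, and the members held 1.14% ± 0.00452 of the WT counts. The 10 mESC markers were all tested, with a summed level between 4223 and 4758 normalized CPM in WT libraries, and the defining markers of primitive endoderm (4 genes, at most 16.7 in sum over the total RPF libraries) and neural cells (3 genes, at most 22.3, most of it *Pax6*) failed the filter. Of 3 mesoderm markers *Eomes* was tested (the 3 summed to at most 28.7), and of 4 fibroblast markers *Thy1* (the 4 summed to at most 30.7). *Rps27* was listed at 0 in all libraries, since none of its 192 counted windows was free of an exact copy, so that its counts could not check the tag. *Rps27l* lay between 133 and 159 normalized CPM in the 9 total RPF libraries. The p-values below rest on the spread between clones of a line, and clone and pooled preparation cannot be told apart. With a replicate or clone block, differences shared by the libraries of a replicate or clone are removed. The p-values then rest on the spread that remains, which the fit draws in part from all tested transcripts. They do not measure the spread between the clones of 1 transcript alone. For example, *Psmd4* had log2 ratios of IP over total RPFs of 0.079, 0.32 and 0.14 in the Rps27-FLAG clones (SD 0.12). Its SE with the block was 0.031 in that line. *Psmc4*, with an SD of 0.015 there, also had an SE of 0.031.

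Tagging of *Rps27* came with small differences in total RPFs that did not pass the test for any member. Against WT, 38 of the 46 members had a log2 fold change above 0, with a median of 0.051, beside 49.7% of all tested transcripts above 0 and a median of −0.0011. No member was called (adjusted p under 0.05, edgeR's quasi-likelihood F-test), and 0% of all transcripts were. At an unadjusted p under 0.05 there were 2 members and 294 of all transcripts, and voom and DESeq2 also called 0. With the replicate block, 0 members and 0.00992% of all transcripts were called. The largest values were those of *Psmd9* (0.18, SE 0.15), *Psmc4* (0.18, SE 0.061) and *Psmg1* (0.14, SE 0.063), and the smallest those of *Psma8* (−0.091, SE 0.17), *Psmb10* (−0.084, SE 0.14) and *Psmg2* (−0.068, SE 0.12), each with an adjusted p of 0.999.

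The clone values show how small these differences were. *Psmc4*, an ATPase, measured 336, 357 and 357 normalized CPM in the Rps27-FLAG clones and 292, 312 and 327 in the WT clones, so the groups did not overlap. In 7 members (*Psmb1*, *Psma6*, *Psmc1*, *Psmg1*, *Psmd5*, *Psmc4* and *Psmd4*) all 3 Rps27-FLAG clones were above all 3 WT clones, which is 15.2% of the members beside 4.08% of all transcripts, and in 0 members were they all below, beside 4.44%. All 6 ATPases were above 0, with a median of 0.10, and so were all 7 alpha subunits, with a median of 0.039. Against the mean of the 3 WT clones, the median over the members was 0.0065, 0.074 and 0.085 in the 3 Rps27-FLAG clones. As a share of all counts, members held 1.19% ± 0.0167 in Rps27-FLAG total RPFs beside 1.14% ± 0.00452 in WT.

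In the Rps27l-FLAG line the members were spread on both sides of 0. Against WT, 24 of the 46 members were above 0, with a median of 0.00097, beside 50.8% of all transcripts and a median of 0.0026. No member was called, and 0% of all transcripts were. At an unadjusted p under 0.05 there was 1 member among 574 transcripts, and voom and DESeq2 called 0 members. With the replicate block, 0 members were called beside 1.43% of all transcripts. As a share of all counts, members held 1.17% ± 0.0190 in Rps27l-FLAG total RPFs (1.144% to 1.178%) beside 1.138% to 1.147% in the WT libraries. *Psmb10*, the inducible counterpart of *Psmb7*, had the lowest value (−0.34, SE 0.14, adjusted p = 0.821 with edgeR). It measured 13.3, 14.8 and 11.4 normalized CPM in the Rps27l-FLAG clones and 15.0, 18.5 and 16.6 in WT, with no overlap, from 72 to 139 counts a library. It was the single member (2.17%) with all 3 clones below WT, beside 4.85% of all transcripts, and 0 members had all 3 above, beside 4.80%. *Psma8* (−0.27, SE 0.17) and *Psmg2* (−0.17, SE 0.12) followed, and the highest values were those of *Psmd9* (0.19, SE 0.15), *Psmc3ip* (0.16, SE 0.13) and *Psmf1* (0.091, SE 0.11). *Psmd9*, a 19S chaperone, was thus the highest member in both tagged lines, which were compared with the same WT libraries.

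Between the tagged lines, members tended to lie below 0. Of the 46 members, 6 had a log2 fold change of Rps27l-FLAG against Rps27-FLAG above 0 in total RPFs, and the median was −0.046, beside 0.0032 for all transcripts, of which 50.8% were above 0. No member was called, nor was any other transcript (0%), and 2 members had an unadjusted p under 0.05 among 580 transcripts, while voom and DESeq2 called 0 members. With the replicate block 0 members and 1.36% of all transcripts were called. All 3 Rps27l-FLAG clones were below all 3 Rps27-FLAG clones in 6 members (*Psmb6*, *Psmc1*, *Psmg1*, *Psmb7*, *Psmc4* and *Psme1*), 13.0% of the members beside 5.77% of all transcripts, and above in 0 members, beside 5.73%. *Psmb10* (−0.25, SE 0.14), *Psmc4* (−0.21, SE 0.061) and *Psme1* (−0.19, SE 0.089) were the lowest, each with an adjusted p of 0.803 with edgeR. *Psmc3ip* (0.056, SE 0.13), *Psmd8* (0.033, SE 0.055) and *Psmd10* (0.017, SE 0.12) were the highest. This comparison shares the Rps27-FLAG libraries with the first and the Rps27l-FLAG libraries with the second.

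**Figure D2:**
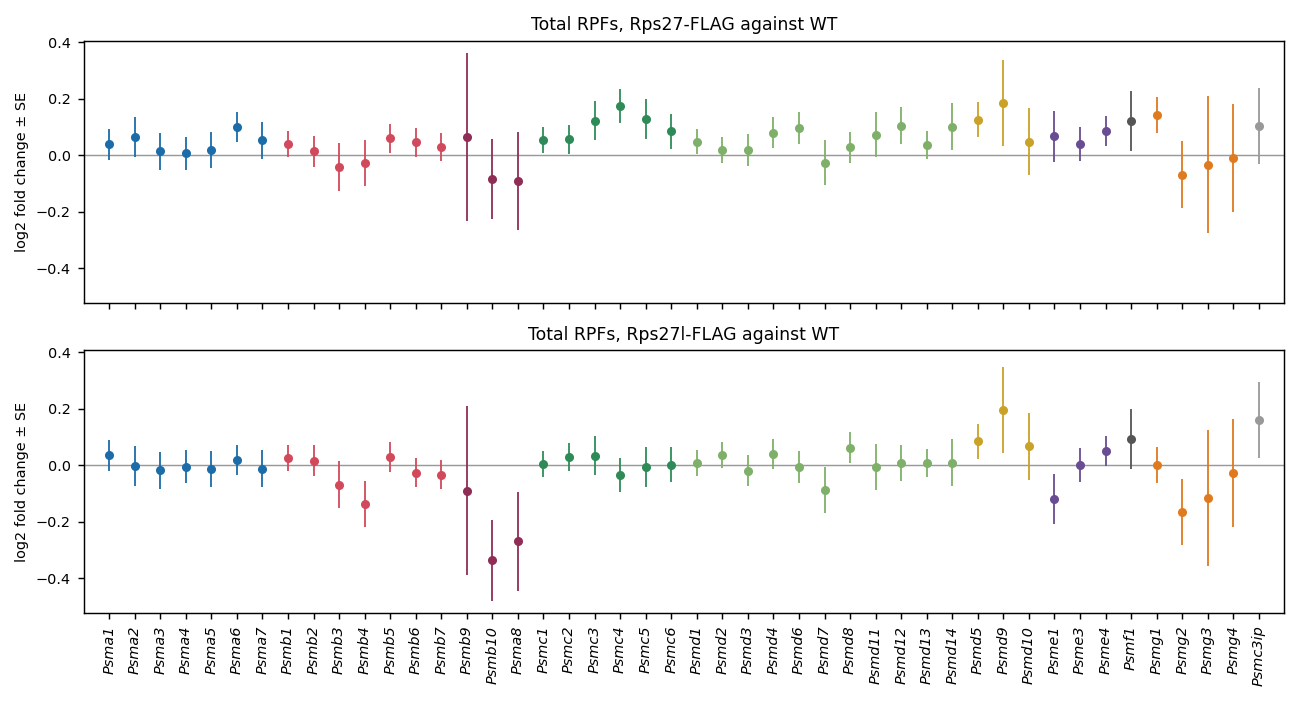
Log2 fold change ± SE (edgeR) of the 46 tested members in total RPFs, Rps27-FLAG against WT above and Rps27l-FLAG against WT below, coloured by role as in the density plot, with 3 clones in each line. Most members lie slightly above 0 in the upper panel (38 of 46) and on both sides of 0 in the lower one (24 of 46 above).

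Ribosomes pulled down with a FLAG tag carried fewer RPFs of *Psme4* than all ribosomes did, in both lines. *Psme4*, the PA200 activator with the longest CDS of the members (5529 nt, chromosome 11, 47 exons), measured 255, 264 and 276 normalized CPM in the Rps27-FLAG IP RPFs and 389, 414 and 418 in the total RPFs of the same clones. In Rps27l-FLAG it measured 299.8, 287 and 275 in IP RPFs and 404, 404 and 382 in total RPFs. The IP and total libraries did not overlap in either line. The log2 fold change of IP against total RPFs was −0.62 (SE 0.060, adjusted p = 0.0016 with edgeR) in Rps27-FLAG and −0.47 (SE 0.055, adjusted p = 0.0064) in Rps27l-FLAG. It was the single member called in each line, and 0 members were called higher. Of all transcripts, 5.34% were called lower and 0.327% higher in Rps27-FLAG, and 2.27% lower and 0.833% higher in Rps27l-FLAG.

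The call of *Psme4* depended on whether CDS length was taken into account. The 196 tested transcripts with a CDS of 5000 to 6000 nt had a median of −0.34 (quartiles −0.54 and −0.13) in Rps27-FLAG and −0.28 (quartiles −0.42 and −0.13) in Rps27l-FLAG. With the trend on CDS length removed, *Psme4* came to −0.28 (adjusted p = 0.157) and −0.19 (adjusted p = 0.180) without the replicate block and was called in neither line. With the block and the length trend removed it kept −0.28 (adjusted p = 5.0e-16) and −0.19 (adjusted p = 2.4e-06) with edgeR. Leaving out Rps27-FLAG replicate 2 or 3 moved its adjusted p to 0.124 or 0.103, and leaving out Rps27l-FLAG replicate 1 or 2 moved it to 0.132 or 0.324, at log2 fold changes between −0.63 and −0.45.

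**Figure D3:**
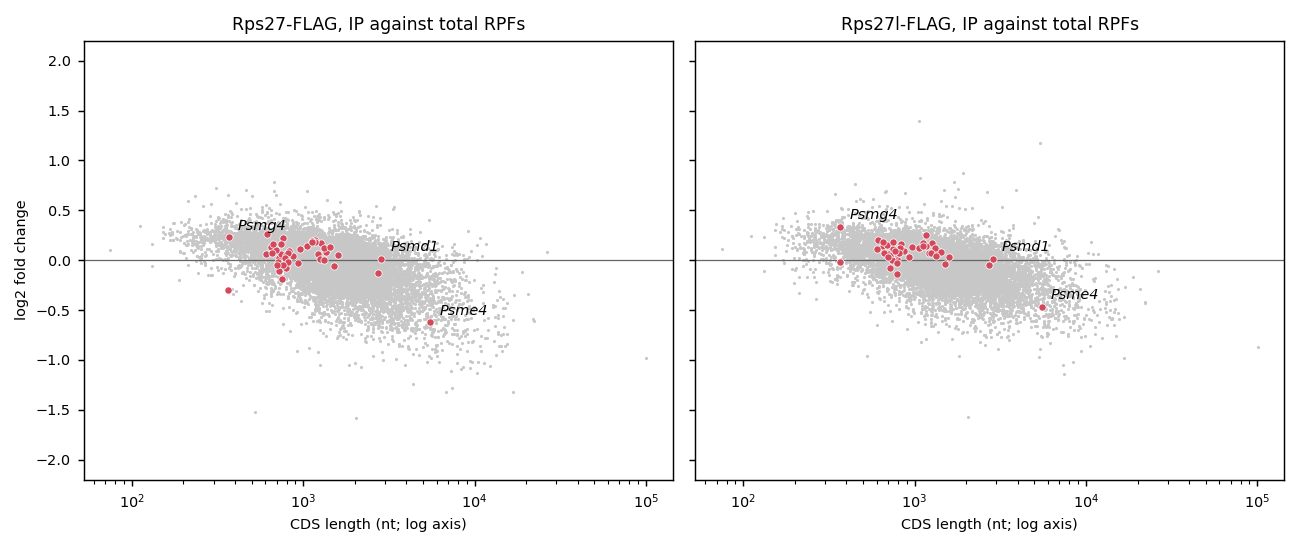
Log2 fold change of IP against total RPFs (edgeR) plotted against CDS length (nt, log axis) for all tested transcripts (grey) and the 46 tested members (red), Rps27-FLAG on the left and Rps27l-FLAG on the right. Most members are short and lie near or above 0, and *Psme4*, at 5529 nt, lies at −0.62 and −0.47 among other long transcripts below 0.

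Without the block, the values of the other members lay between −0.30 (*Psmg3*, Rps27-FLAG) and 0.34 (*Psmg4*, Rps27l-FLAG). The median over the 46 members was 0.054 in Rps27-FLAG, with 30 above 0, and 0.085 in Rps27l-FLAG, with 39 above 0, beside medians of all transcripts of −0.010 and −0.031. The members had a median CDS of 802.5 nt beside 1440.0 nt for all tested transcripts, and the 1817 tested transcripts with a CDS of 600 to 1000 nt had medians of 0.10 and 0.062. Across the 45 tested members other than *Psme4*, the Spearman correlation of the log2 fold change (with the replicate block) with CDS length was 0.021 in Rps27-FLAG and −0.18 in Rps27l-FLAG, given as a description over transcripts of the same libraries.

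IP and total RPFs of a replicate came from the same clone, and the fit with the clone as a replicate block called many more transcripts. As described above, its p-values rest on a spread drawn in part from all transcripts. In Rps27-FLAG it called 15 members higher (32.6% of the 46, beside 18.3% of all transcripts) and 4 lower (8.70%, beside 22.9%). In Rps27l-FLAG it called 19 members higher (41.3%, beside 12%) and 2 lower (4.35%, beside 19%). In both directions together this was 41.3% of the members beside 41.2% of all transcripts in Rps27-FLAG and 45.7% beside 31.0% in Rps27l-FLAG. The members called higher in both lines numbered 14 (*Psmb3*, *Psmb7*, *Psmc1*, *Psmc2*, *Psmc6*, *Psmd4*, *Psmd6*, *Psmd7*, *Psmd8*, *Psmd11*, *Psmd12*, *Psmd13*, *Psme1* and *Psmg4*), that is 14 of the 15 and 14 of the 19. *Psme4* was called lower in both. The matching number over all transcripts is not given here, so this overlap is not read as particular to the members. All calls of higher members held under DESeq2 size factors and under TMM over all 15 libraries, whereas the lower calls of *Psma6* and *Psmg2* were lost under both scalings. With the block, the split of all transcripts turned under DESeq2 size factors, from 1846 higher and 2308 lower to 2214 and 2037 in Rps27-FLAG and from 1209 and 1919 to 1623 and 1549 in Rps27l-FLAG. Without the block, the 33 higher and 539 lower in Rps27-FLAG became 41 and 402 under DESeq2 size factors and 95 and 489 with DESeq2, and the split in Rps27l-FLAG moved from 84 and 229 to 133 and 194, or to 121 and 202 under TMM over all libraries.

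By role, subunits of the 19S particle were called in both lines with the replicate block, and no test compared the roles. Of the 6 ATPases, 3 were called higher in each line (*Psmc1*, *Psmc2* and *Psmc6*) and 0 lower. Of the 11 non-ATPase subunits, 7 were called higher in each line (*Psmd4*, *Psmd6*, *Psmd7*, *Psmd8*, *Psmd11*, *Psmd12* and *Psmd13*), and *Psmd2*, the large scaffold of the base, was called lower in Rps27-FLAG (−0.13, SE 0.030, adjusted p = 6.1e-05 with edgeR) but not in Rps27l-FLAG (−0.046). With the length trend removed, *Psmd2* turned to 0.040 in Rps27-FLAG and was not called. Of the 7 alpha subunits, 0 were called higher in Rps27-FLAG and 2 lower (*Psma5* at −0.11 and *Psma6* at −0.075), whereas 3 were called higher in Rps27l-FLAG (*Psma3*, *Psma4* and *Psma7*, between 0.076 and 0.091). Of the 7 constitutive beta subunits, 2 were called higher in Rps27-FLAG (*Psmb3* and *Psmb7*) and 4 in Rps27l-FLAG (*Psmb1*, *Psmb2*, *Psmb3* and *Psmb7*). Whether the rings differed between the lines as groups was not tested. With the length trend removed as well, 14 members were higher (beside 18.4% of all transcripts) and 11 lower (beside 13%) in Rps27-FLAG, with 9 of the 11 non-ATPase subunits higher and 4 of the 7 alpha subunits lower. In Rps27l-FLAG 18 were higher (beside 14.7%) and 3 lower (beside 8.05%), with 16 of the 17 subunits of the 19S particle higher.

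The members with the highest values were measured as follows. *Psmc6*, the ATPase with the highest density, measured 438, 472 and 498 normalized CPM in the Rps27-FLAG IP RPFs against 388, 419.98 and 429 in total RPFs, and 448, 446 and 493 against 379.6, 374 and 412 in Rps27l-FLAG. The IP libraries were above the total libraries in both lines, and the log2 ratio within a clone lay between 0.17 and 0.26 in all 6 clones. Its fold change with the replicate block was 0.19 (SE 0.030, adjusted p = 1.2e-08 with edgeR) and 0.25 (SE 0.029, adjusted p = 1.2e-10). Without the block it was called in neither line (adjusted p = 0.172 in Rps27-FLAG and 0.0757 in Rps27l-FLAG with edgeR). *Psmb3* measured 62.8, 74.7 and 75.0 in the Rps27-FLAG IP RPFs against 53.4, 62.7 and 60.5 in total RPFs, with 0.26 (SE 0.058, adjusted p = 4.9e-05) in Rps27-FLAG and 0.20 (SE 0.061, adjusted p = 0.0072) in Rps27l-FLAG with the block. With the length trend removed as well, *Psmb3* was called in Rps27-FLAG (0.15, adjusted p = 0.0404) and not in Rps27l-FLAG (0.12, adjusted p = 0.175), and most of its windows are shared as described above.

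*Psmg4*, a chaperone of alpha ring assembly with a CDS of 369 nt, measured 31.8, 27.9 and 23.7 normalized CPM in the Rps27-FLAG IP RPFs against 29.2, 22.7 and 19.1 in total RPFs. It was higher in IP RPFs in each of the 6 clones, by 0.22 (SE 0.093, adjusted p = 0.046 with edgeR and the replicate block) and 0.34 (SE 0.093, adjusted p = 0.0029), and was not called in either line once the length trend was removed (adjusted p = 0.812 and 0.144). *Psme3*, the nuclear activator, measured 191, 212 and 210.4 in the Rps27-FLAG IP RPFs against 166, 184 and 175 in total RPFs, at 0.22 (SE 0.035, adjusted p = 2.9e-09) with the block, and came to 0.089 (SE 0.037, adjusted p = 0.059) in Rps27l-FLAG. The lowest values after *Psme4* were those of *Psmg3* (−0.30, SE 0.21, from 32 to 78 counts a library) and *Psma8* (−0.19, SE 0.17) in Rps27-FLAG and of *Psmg2* (−0.14, SE 0.085) and *Psma5* (−0.076, SE 0.058) in Rps27l-FLAG, none of them called without the block.

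Without a fit, the 3 IP libraries were all above the 3 total libraries in 11 members in Rps27-FLAG (23.9%, beside 11.3% of all transcripts) and in 16 in Rps27l-FLAG (34.8%, beside 9.11%). They were all below in 2 members in Rps27-FLAG, *Psmd2* and *Psme4* (4.35%, beside 17.0%), and in 1 in Rps27l-FLAG, *Psme4* (2.17%, beside 14.2%). Of the 3 tested inducible or tissue-specific subunits, *Psmb9* varied most between clones, with 14 to 62 counts a library. Its log2 ratio ranged from −0.13 to 0.48 in Rps27-FLAG (SD 0.33). *Psmb10* (SD 0.088) and *Psma8* (SD 0.10) did not vary more there than constitutive subunits such as *Psmd4* (SD 0.12). With the block, 0 of the 3 were called in either line.

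**Figure D4:**
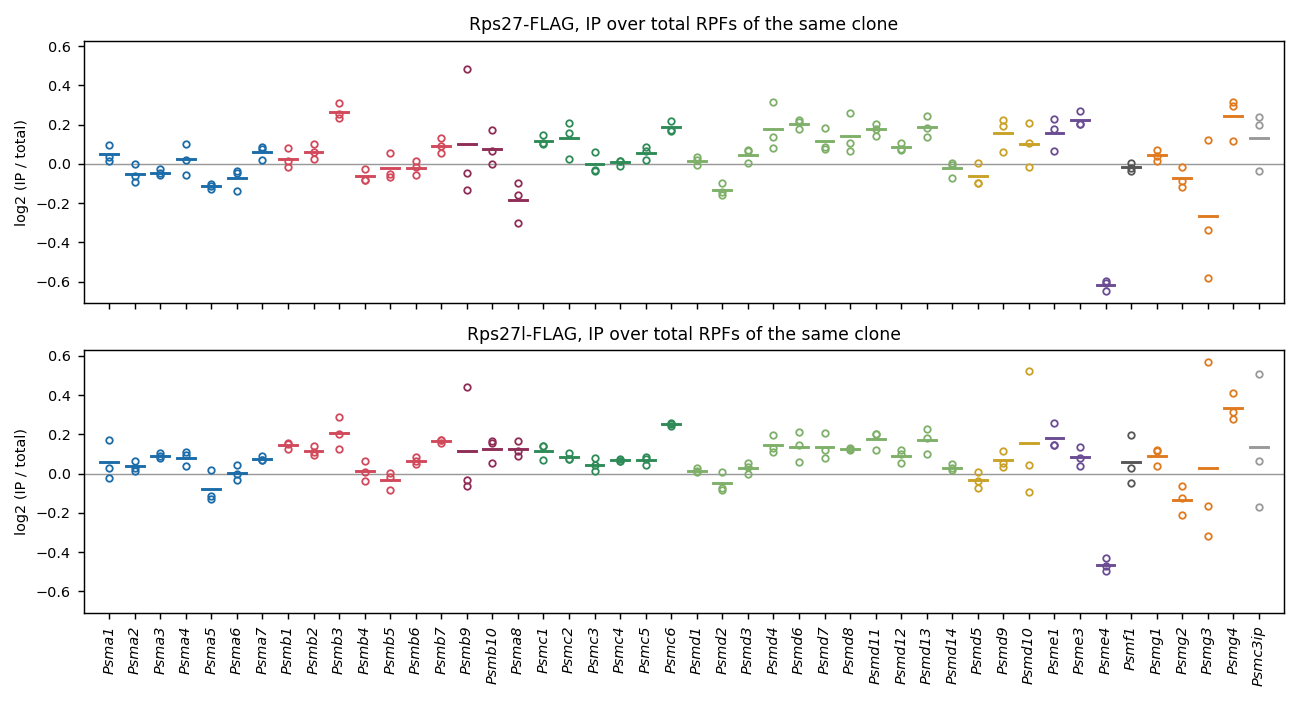
Log2 ratio of IP over total RPFs of the same clone for the 46 tested members, with circles for the 3 clones, bars for their means and colours for roles as in the density plot. *Psme4* lies between −0.65 and −0.60 in Rps27-FLAG and between −0.50 and −0.43 in Rps27l-FLAG, and the 19S subunits *Psmc6*, *Psmd6*, *Psmd11* and *Psmd13* lie above 0 in all 6 clones. Other members do so as well, such as *Psmc1* and, in other roles, *Psmb3*, *Psmb7*, *Psme3* and *Psmg4*.

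No member passed both limits when the IP effects of the lines were compared (adjusted p under 0.05 and an absolute log2 fold change over 0.25, with clones as blocks). Of all transcripts, 0.466% were higher in Rps27l-FLAG and 0.0992% lower. The median over the members was 0.034, with 33 of 46 above 0, beside −0.0030 for all transcripts, and 7 members had an unadjusted p under 0.05 among 1217 transcripts, while voom and DESeq2 also called 0 members, with 15 members left without an adjusted p by DESeq2. Without the limit on the fold change, *Psme4* was the single member called (0.16, SE 0.044, adjusted p = 0.042 with edgeR), beside 1.49% of all transcripts, and its fall in IP RPFs was thus smaller in Rps27l-FLAG. With the length trend removed it came to 0.089 (adjusted p = 0.419), with DESeq2 its adjusted p was 0.233, and without 1 clone it was over 0.05 in 5 of the 6 cases. *Psma8* (0.30, SE 0.14, adjusted p = 0.346), *Psmg3* (0.29, SE 0.25) and *Psme4* were the highest, and *Psme3* (−0.13, SE 0.051, adjusted p = 0.201), *Psmd9* (−0.085, SE 0.13) and *Psmd6* (−0.064, SE 0.045) the lowest. *Psma8* was below 0 in the 3 Rps27-FLAG clones, from −0.30 to −0.099, and above 0 in the 3 Rps27l-FLAG clones, from 0.089 to 0.16.

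Of 31 further genes that act with the proteasome, 29 were tested. *Adrm1*, a ubiquitin receptor of the 19S particle, failed the filter, with 84 of its 1161 counted windows free of an exact copy. The total RPF comparisons called 0 of the 29 with or without the replicate block. In IP against total RPFs without the block, 1 was called higher and 1 lower in Rps27-FLAG, and 2 higher and 1 lower in Rps27l-FLAG. *Ube3c*, a ubiquitin ligase bound to the proteasome, was lower in both lines (−0.52, SE 0.064, adjusted p = 0.0038, and −0.53, SE 0.077, adjusted p = 0.017, with edgeR) and has a CDS of 3249 nt. *Ubqln2*, a shuttle for ubiquitinated proteins, was higher in Rps27-FLAG (0.25, SE 0.057, adjusted p = 0.049). *Vcp*, the segregase that extracts substrates (0.21, SE 0.042, adjusted p = 0.039), and *Rps27a*, a fusion of ubiquitin with a ribosomal protein (0.36, SE 0.062, adjusted p = 0.024), were higher in Rps27l-FLAG.

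With the block, 14 were called higher and 2 lower in Rps27-FLAG, and 13 higher and 2 lower in Rps27l-FLAG, with medians over the 29 of 0.14 and 0.12. Over all transcripts the shares under this fit were 18.3% higher and 22.9% lower for Rps27-FLAG, and 12% and 19% for Rps27l-FLAG. *Pomp*, the maturation factor of the core, was higher in both lines (0.26, SE 0.037, and 0.30, SE 0.040), as were the shuttles *Rad23b*, *Ubqln1*, *Ubqln2*, *Ubqln4* and *Ddi2*. *Ube3c* and *Ecpas*, a proteasome adaptor with a CDS of 5520 nt, were the 2 called lower in both lines, *Ecpas* at −0.24 (SE 0.040) and −0.24 (SE 0.037). The difference between the lines called 0 of the 29, beside 0.466% of all transcripts higher and 0.0992% lower. In density, *Pomp* (416) and *Sem1* (289), a small subunit of the lid, lay in the range of the structural subunits, and *Nfe2l1*, which drives transcription of proteasome genes, had 96.7.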

How the data were processed

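RPFs of 15 libraries from mESCs (3 WT, 3 Rps27-FLAG and 3 Rps27l-FLAG clones) were analysed. The authors deposited raw counts for each transcript. Per the labels and methods, reads were trimmed with cutadapt 2.4, deduplicated by molecular identifier with UMI-tools 1.0.1, aligned with Bowtie2 2.3.4.3 to GRCm38 transcripts, kept where unique and counted as A sites over the CDS without its first 15 and last 5 codons. All 15 columns were used, and 0 were left out. Symbols, positions and lengths came from GENCODE M21, in which 14 of 21727 transcripts have no entry. Members and lists were chosen with earlier results of these data known.

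The 13 transcripts of the mitochondrial genome were removed, a CPM over 2 was required in 14 or more libraries (the number of libraries was set here), and TMM factors were computed for IP and total RPFs separately. Counts were tested with edgeR 4.0.16 in R 4.3.3 (quasi-likelihood F-test, Benjamini-Hochberg over all tested transcripts). Total RPFs were fitted by line, IP against total RPFs by fraction within a line, and the difference of IP effects by line, clone and fraction without *Tmod3*. Alternatives were limma 3.58.1 (voom), DESeq2 1.42.0 and its size factors, TMM over all libraries, other filters, the replicate block, a loess trend on CDS length (span 0.5) and leaving out each clone. Fits were tested on simulated data. Before log2 ratios of single clones, 0.5 counts were added. Windows of 28 nt were compared with all transcripts of the table on the sense strand. Library totals of 3972152 to 8064166 counts set the precision, given as SD over clones or SE of the fit.

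The replicate number pairs samples: IP and total RPFs of a replicate come from 1 clone and 1 pooled preparation. Residuals of both libraries of a clone correlated with r between 0.468 and 0.79, and those of total RPF libraries of different lines with the same number between −0.164 and 0.713 (median 0.443, below 0 in some pairs of replicate 2). Within a condition, chi-squared divided by its degrees of freedom was 1.8 to 9.01 for each pair of libraries, and none was a copy of another. The named members were those past the threshold, the 3 highest and 3 lowest of each comparison, the highest and lowest density of each role, the catalytic subunits and their counterparts, the longest CDS and those failing the filter. Others are named as examples or to spell out a count. Values of some listed genes outside the members are not reported here.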

Additional observations from a re-analysis of the deposited data

Results flagged for a closer look

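The IP effect of *Psme4* differed between the tagged lines by the test of that difference, with a log2 difference of 0.16 (SE 0.044, adjusted p = 0.042 with edgeR) between −0.47 in Rps27l-FLAG and −0.62 in Rps27-FLAG. The 3 Rps27l-FLAG clones lay between −0.50 and −0.43 and the 3 Rps27-FLAG clones between −0.65 and −0.60. The difference was under the limit of 0.25 on the fold change, had an adjusted p of 0.9999 without the clones as blocks of 0.233 with DESeq2, of 0.0694 with no filter on low counts and of 0.419 with the length trend removed. Leaving out 1 clone gave adjusted p-values from 0.0469 (without Rps27l-FLAG replicate 2, the one under 0.05) to 0.236, at differences from 0.14 to 0.17. The cause was not tested.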

How the results depend on the processing

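In total RPFs, 0 members were called under each alternative run, and without 1 clone the median lay between 0.040 and 0.075 in Rps27-FLAG against WT, between −0.010 and 0.016 in Rps27l-FLAG against WT and between −0.082 (without Rps27-FLAG replicate 1) and −0.041 between the tagged lines. Single members turned: in Rps27-FLAG against WT, *Psma8* ranged from −0.23 to 0.031 and *Psmg2* from −0.17 to 0.035 (both highest without Rps27-FLAG replicate 1), with *Psmg2* at 0.0051 without WT replicate 2, and *Psmd10* to −0.054 and −0.035 without Rps27l-FLAG replicate 1 or 3 and −0.017 without Rps27-FLAG replicate 1 (between the tagged lines, highest at 0.14 without Rps27l-FLAG replicate 2). With the pairing of clones as a replicate block, the members called in IP against total RPFs went from 1 to 19 in Rps27-FLAG and from 1 to 21 in Rps27l-FLAG. With the block these were 41.3% and 45.7% of members, beside 41.2% and 31.0% of all transcripts. Further settings gave, in Rps27-FLAG and Rps27l-FLAG, 0 and 0 with the length trend removed (beside 0.268% and 0.0793% of all transcripts). With block and length they gave 25 and 21 (54.3% and 45.7% of members, beside 31.4% and 22.7% of all transcripts). With the block, DESeq2 size factors gave 23 and 27 (beside 42.2% and 31.5%) and TMM over all libraries 18 and 26 (beside 41.6% and 31.4%). DESeq2 called 2 in Rps27l-FLAG (4.35% of members beside 4.56% of all transcripts), which added *Psmc6*. Leaving out 1 clone gave 0 to 9 members in Rps27-FLAG (9 without replicate 1, 19.6% of members beside 18.0% of all transcripts, and 0 of both without replicate 2 or 3) and 0 to 1 in Rps27l-FLAG (0 of members and of all transcripts without replicate 1 or 2). With the block, it gave 11 to 13 higher and 3 to 4 lower in Rps27-FLAG, beside 14.1% to 14.7% and 18.7% to 19.4% of all transcripts. In Rps27l-FLAG it gave 12 to 15 higher and 1 to 2 lower, beside 9.24% to 9.66% and 14.4% to 15.6%.

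The median over the members in IP against total RPFs came to 0.081 (DESeq2 size factors), 0.017 (length) and 0.020 (block and length) in Rps27-FLAG. In Rps27l-FLAG it came to 0.12 with DESeq2, its size factors or both block and size factors, to 0.11 with TMM over all libraries, with or without the block, and to 0.075 to 0.090 without 1 clone. In the difference between the lines it came to 0.050 (DESeq2), 0.044 (TMM over all libraries), 0.060 (length) and 0.026 to 0.052 without 1 clone, and 1 member was called with no limit on the fold change. Without the block this comparison called 0 of all transcripts, with 141 at an unadjusted p under 0.05.

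With the same counts divided by windows without copies, RPF densities of tested members moved beyond the SD of the clones in these cases. They were *Psmb3* (221 without exact copies, 1081 without copies within 2 mismatches), *Psmb7* (421 and 586), *Psmd1* (262 and 264) and *Psmg3* (61.6 and 62.5). Divided by the whole CDS, these came to 98.4, 358, 233 and 24.7. The whole CDS includes codons in which nothing was counted. Densities of members therefore fell, many beyond the SD, such as *Psma6* from 628 to 577. Over all 9 total RPF libraries some members also moved beyond the SD, such as *Psmd1* (240.9) and *Psma6* (645). DESeq2 gave no adjusted p for 6 of the named values. Of the members with few counts, *Psmb9* had an SE of 0.30 and *Psmg3* of 0.24 in the total RPF comparisons, which limits what these can show.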
